A study of Mus musculus with 4 samples.

Results

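Interferon response genes are the genes that cells switch on when they sense an interferon, and 39 of them were followed here in mouse airway smooth muscle. They were chosen as a list of gene symbols, and no measured value enters the rule. The list was drawn up with earlier results of these data known, so it is not blind to them. Of the 39, 37 had a named probe set among the 23185 named genes of the array, and Gbp6 and Ifi44 did not. A probe set with Ifi44's Entrez number is among the values, but the annotation does not name it. It was not used, and Ifi44 is counted as unmeasured. The cells came from adult mice with the genotype Acta2-hrGFP;Cspg4-DsRED, in which the smooth muscle actin promoter drives a green reporter and the Cspg4 promoter, active in pericytes, a red reporter. Green cells without red were sorted from lung, and cells of 3 mice were pooled for each of 4 arrays. The VAS group ate ordinary chow (vitamin A 15 IU/g). The VAD group ate chow almost free of the vitamin (less than 0.1 IU/g), for a time that the protocol gives both as 3 days and as 5 days. The CTR group ate sufficient chow as a powder with corn oil, the vehicle, for 3 days. The BMS group ate that powder with a pan-RAR antagonist (5 mcg/g), a compound that blocks every retinoic acid receptor type. All 4 groups carried both reporters, and each group is 1 array. The sources used here do not give the strain background of each group, and its part was not tested. Differences within an experiment, and between the controls, therefore compare arrays and have no spread between mice to be set against.

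Interferons are secreted when pattern sensors such as RIG-I and MDA5 meet viral nucleic acid. Type I interferon acts through a receptor whose kinases activate a complex that includes STAT2 and IRF9 and binds interferon-stimulated response elements, and interferon gamma acts through its own receptor and at gamma-activated sites. The genes induced in this way encode antiviral proteins, GTPases that attack intracellular parasites, and the machinery that prepares peptides for class I histocompatibility molecules. Many of them are also expressed at a basal level in healthy tissue.

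Levels are log2 values, and the filter kept genes with a highest value of at least 6.05, the median over named genes and arrays. It kept 12395 genes and 32 of the 37 measured members. Oas1a, Oas3, Oasl1, Mx1 and Rsad2 stayed below it on every array. Ifi27l2a was the last member inside, with a highest value of 6.08, and Rsad2 the first outside, with 5.71. Ifi27l2a, Ifitm1, Mx2 and Oas2 passed through their highest arrays, since their means lay under the filter, so a difference between their arrays came with the choice. The smooth muscle markers were high on all arrays, with Acta2 between 11.95 and 12.12 and Myh11 between 11.18 and 11.56. Markers of other cells were present too, as Dcn, a fibroblast proteoglycan, lay between 12.42 and 12.62 and Cd74, a chaperone of antigen-presenting cells, between 8.53 and 10.37. In pooled RNA, fewer cells of a type and less RNA per cell cannot be told apart.

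The interferon response genes were highest on the VAS array for the most part. Of the 32 members past the filter, 21 (65.6%) had their highest value on VAS, where 26.7% of all genes did. VAD, CTR and BMS were highest for 2, 6 and 3 members, beside 19.4%, 26.7% and 27.3% of all genes. The lowest value was on BMS for 15 members, on VAD for 10, on CTR for 6 and on VAS for Ddx58 alone. For all genes the shares lowest on BMS, VAD, CTR and VAS were 22.9%, 19.7%, 26.9% and 30.5%. The levels of each gene on the 4 arrays are drawn in role order.

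**Figure D1:**
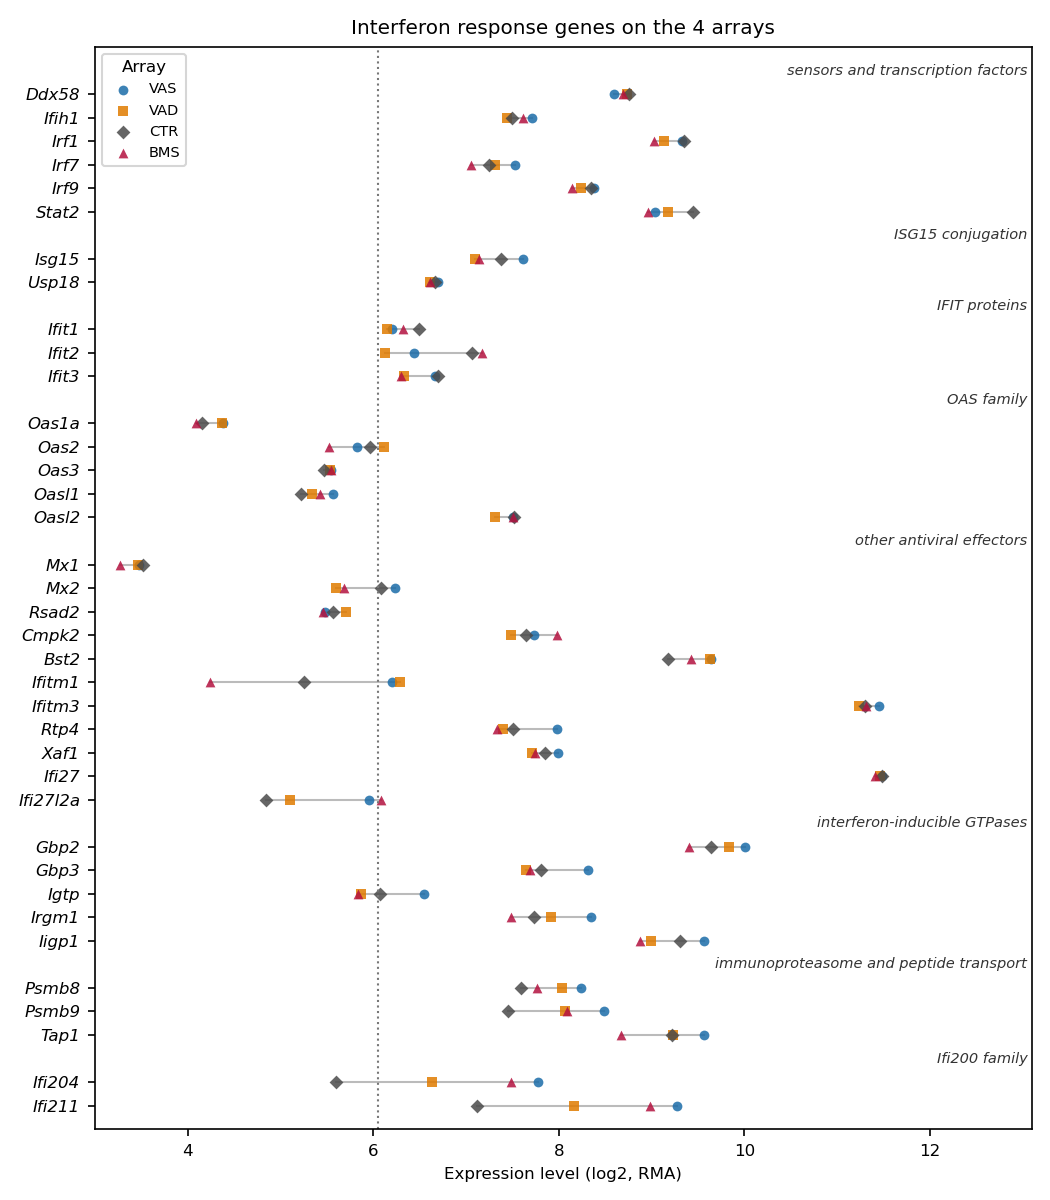
Expression level (log2, horizontal axis) of the 37 measured interferon response genes on the VAS, VAD, CTR and BMS arrays, with 1 point per array, a grey line over the range of a gene and a dotted line at the filter of 6.05. Positions compare arrays within a gene, not genes with each other. All 5 GTPase genes stand highest on VAS, and Ifi204 and Ifi211 stand highest on VAS and lowest on CTR.

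The diet comparison, VAD against VAS, asked how short vitamin A deprivation altered gene expression in these cells. Of the 32 members, 28 (87.5%) were lower in VAD, where 48.5% of all genes were. At 1.5-fold, 6 members (18.8%) were lower and 0 higher, against 2.11% and 1.45% of all genes (3.57% either way). The 6 were Ifi204, Ifi211, Ifi27l2a, Igtp, Gbp3 and Mx2, with Iigp1 and Rtp4 just outside at -0.58 each. Mx2 and Ifi27l2a are among the members that passed the filter through their highest arrays, and 4 of the 28 members whose mean passed it were 1.5-fold lower. At 2-fold, Ifi204 and Ifi211 were lower and 0 members higher, beside 0.42% and 0.234% of all genes. The median of the members was -0.26 on the log2 scale, and that of all genes 0.008. Against CTR in place of VAS, the median of the members was -0.07, with 4 members 1.5-fold higher and 1 lower, beside 4.29% and 1.92% of all genes.

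The antagonist comparison, BMS against CTR, asked how expression differed once these receptors were blocked. The members split: 22 (68.8%) were lower in BMS, where 48.5% of all genes were, while the largest differences were upward. At 1.5-fold, 4 members (12.5%) were higher and 1 lower, against 3.11% and 1.89% of all genes (5% either way). At 2-fold 3 were higher and 1 lower, against 1.07% and 0.282%. Ifi204, Ifi211, Ifi27l2a and Psmb9 were the higher genes, and Ifitm1 the lower gene. The median of the members was -0.15, beside 0.008 for all genes. With the 28 members whose mean passed the filter, 3 were 1.5-fold higher and none lower, since Ifi27l2a and Ifitm1 drop out. Against VAS in place of CTR, 1 member was 1.5-fold higher and 8 were lower, beside 3.21% and 5.41% of all genes, and the median was -0.29.

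The controls, CTR against VAS, were both vitamin A-sufficient but differed in experiment, diet form, vehicle and pool. Here 24 of the 32 members were lower in CTR, beside 49.5% of all genes. At 1.5-fold 7 were lower and 1 higher, against 5.87% and 2.66% of all genes (8.54% either way), and the median was -0.22. Ifi204, Ifi211, Ifi27l2a and Psmb9 were at least 2-fold lower in CTR and 0 members 2-fold higher, beside 1.71% and 0.323% of all genes. This comparison shares its arrays with the other comparisons, so its values are not separate evidence.

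**Figure D2:**
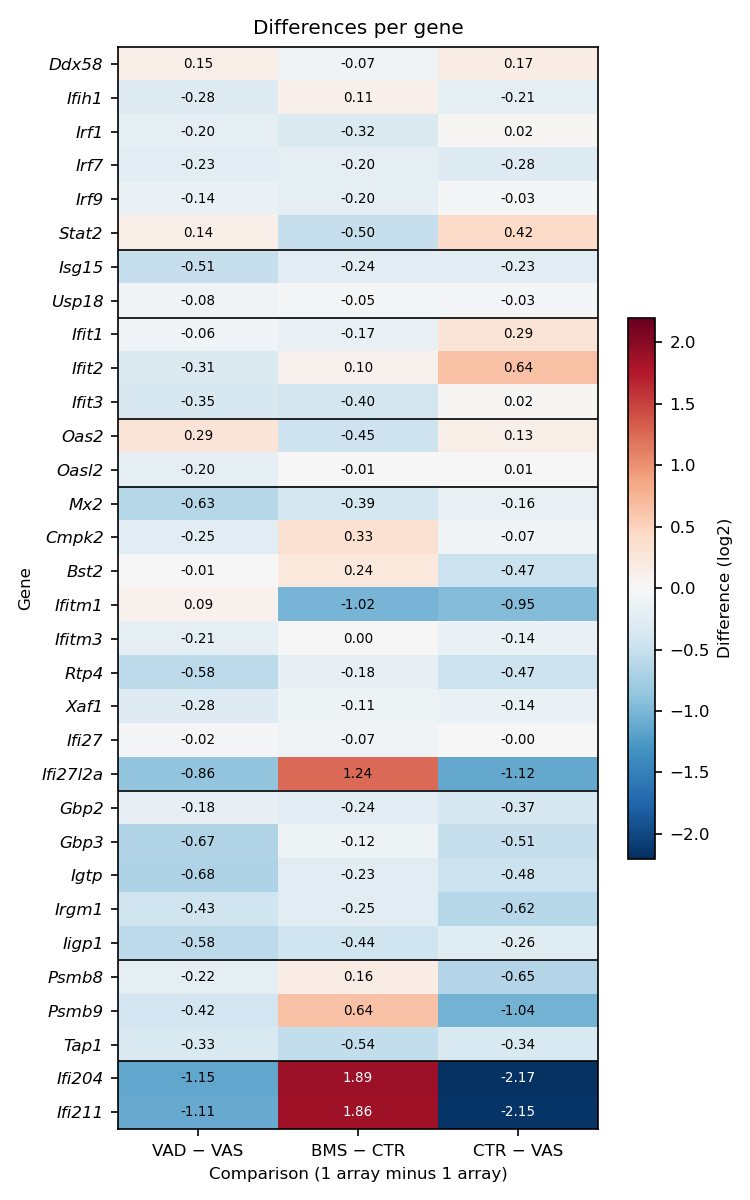
Difference in log2 level for the 32 members past the filter (rows, in role order, with lines between roles) in VAD minus VAS, BMS minus CTR and CTR minus VAS (columns), where each cell is 1 array minus 1 array. The left column is mostly blue, with 28 of 32 values below 0, and the largest values in all columns belong to Ifi204 and Ifi211.

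**Figure D3:**
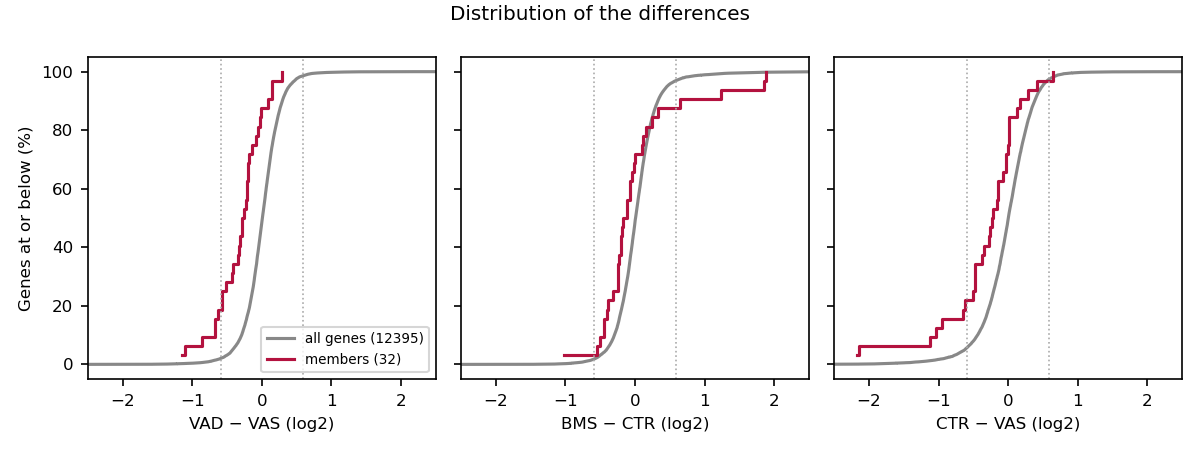
Cumulative share of genes (%, vertical axis) at or below each log2 difference (horizontal axis) in the 3 comparisons, for the 32 members (red) and all 12395 genes past the filter (grey), with dotted lines at 1.5-fold. The red curve lies left of the grey in VAD minus VAS, where the medians were -0.26 and 0.008.

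The experiments share no array, so their differences can be set side by side. In all, 18 of the 32 members (56.2%) were lower in both VAD and BMS than in their own control, where 22.9% of all genes were. Higher in both were 0 members, beside 3212 of all 12395 genes. A further 10 members were lower in VAD and higher in BMS, and 4 the reverse, beside 3155 and 3160 of the 12395 genes. Past 1.5-fold, 3 members were lower in VAD and higher in BMS, beside 0.411% of all genes. Across the 32 members the differences had a Pearson r of -0.66 and a Spearman rho of -0.24. The r rested on a few genes: without Ifi204 and Ifi211 it was -0.35, and without Ifi27l2a and Ifitm1 as well 0.02. Genes of a list are not independent replicates, and these values only describe the 4 arrays.

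**Figure D4:**
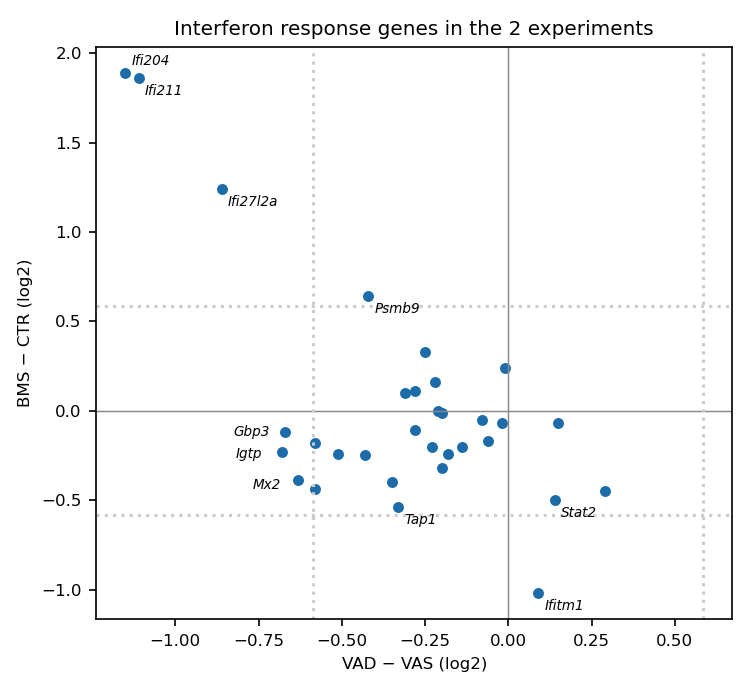
Difference in VAD minus VAS (log2, horizontal axis) against that in BMS minus CTR (log2, vertical axis), with 1 point for each of the 32 members and dotted lines at 1.5-fold. Ifi204, Ifi211 and Ifi27l2a lie at the upper left, Ifitm1 at the bottom, and 18 members lie in the lower left quadrant.

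A test could be had by joining the experiments: limma compared the VAD and BMS arrays with VAS and CTR together, with the experiment as a block and Benjamini-Hochberg adjustment over 12395 genes. It called 0 members and 0 genes in all, and every adjusted p of a member was 1.0. At an unadjusted p under 0.05, the fit had 6 of the 32 members, all lower in VAD and BMS, beside 3.84% of all genes (2.13% in that direction). They were Iigp1 (-0.51, SE 0.13), Mx2 (-0.51, SE 0.14), Tap1 (-0.44, SE 0.14), Ifit3 (-0.37, SE 0.13), Igtp (-0.46, SE 0.17) and Isg15 (-0.38, SE 0.14). None of these passed the adjustment, and the fit has 1 residual degree of freedom. Mx2 passed the filter through VAS and CTR alone (6.24 and 6.08), so its lower values in VAD and BMS came with the choice. Igtp also lay above the filter on VAS and CTR alone (6.55 and 6.07), though its mean of 6.08 passed. With VAS, VAD, CTR or BMS left out, and no block, the median difference of the members was -0.09, -0.2, -0.35 and -0.15, beside -0.14 in the full fit. The number of members at an unadjusted p under 0.05 varied with the array left out. Each of these fits leaves 1 array on 1 side. The experiment term of the same limma fit, CTR and BMS against VAS and VAD, also called 0 members, with a lowest adjusted p of 0.243. At an unadjusted p under 0.05 it had 6 members, 5 of them lower in the antagonist experiment, beside 10.9% of all genes (6.91% lower). Ifitm1 is among the 5, and shares the 0.243 with Ifit2. It passed the filter through VAS and VAD alone (6.20 and 6.29), so its lower values in CTR and BMS came with the choice.

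Sensors and transcription factors differed little, and all 6 passed the filter. Ddx58, which encodes the RNA sensor RIG-I, stood at 8.59, 8.74, 8.76 and 8.69 in VAS, VAD, CTR and BMS. Ifih1, which encodes the sensor MDA5, stood at 7.71, 7.44, 7.50 and 7.61. Neither moved by more than 0.28 over the arrays. Stat2, a subunit of the factor that type I interferon activates, stood at 9.04, 9.18, 9.45 and 8.96, so CTR was the high array. Irf9, its DNA-binding partner, stood at 8.38, 8.24, 8.35 and 8.14, slightly lower in VAD and BMS. Irf1, a factor induced by interferon gamma, was also lower in these, with 9.33, 9.13, 9.35 and 9.03. Irf7, which amplifies interferon production, stood at 7.53, 7.31, 7.25 and 7.05, highest in VAS and lowest in BMS. None of the 6 was 1.5-fold apart in any of the 3 comparisons.

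Isg15 encodes a ubiquitin-like protein that is attached to other proteins after interferon, and Usp18 the protease that removes it. Isg15 stood at 7.61 in VAS, 7.10 in VAD, 7.38 in CTR and 7.14 in BMS, so VAD and BMS lay below both controls. The differences were -0.51 and -0.24. Usp18 stood at 6.70, 6.61, 6.67 and 6.61, a range of 0.08. The 100 bases before the Isg15 start hold 3 overlapping copies of the response element letters and are shown, 5′ to 3′ on the gene's strand (chr4:156200819-156200918, minus strand, RefSeq, GRCm38.p6), with capitals marking the letters GAAA, any 2 bases, GAAA, the core of an interferon-stimulated response element.
Isg15: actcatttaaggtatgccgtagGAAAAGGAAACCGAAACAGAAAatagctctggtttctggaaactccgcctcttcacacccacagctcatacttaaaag

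The IFIT genes encode proteins that bind viral RNA and lie side by side in the genome. Ifit3 stood at 6.67, 6.33, 6.70 and 6.30 in VAS, VAD, CTR and BMS, lower in VAD and BMS by about the same amount (-0.35 and -0.40). Ifit2 stood at 6.44, 6.13, 7.07 and 7.17, so that the antagonist experiment lay above the diet experiment and BMS did not lie below CTR. Ifit2 was the member 1.5-fold higher in CTR than in VAS. Ifit1 stood at 6.20, 6.15, 6.49 and 6.32, near the filter on all arrays. Probe sets of these related genes may share sequence, as also for the OAS, Ifitm, Gbp and Ifi200 families, so values within a family are uncertain.

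Among the OAS genes, whose enzymes make the oligoadenylates that activate RNase L, 2 of 5 passed the filter. Oasl2 stood at 7.51, 7.31, 7.52 and 7.51, so VAD was the low array. Oas2 stood at 5.83, 6.12, 5.97 and 5.52, crossing the filter in VAD. Oas1a, Oas3 and Oasl1 lay between 4.09 and 5.57.

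The other antiviral effectors were mixed, and 9 of 11 passed the filter. Ifi27, a mitochondrial interferon-induced protein, lay between 11.41 and 11.48, and Ifitm3, which blocks virus entry at endosomes, stood at 11.45, 11.24, 11.30 and 11.31. Rtp4, a chaperone of receptors, stood at 7.98, 7.40, 7.51 and 7.33, highest in VAS. Mx2, a dynamin-like GTPase, stood at 6.24, 5.60, 6.08 and 5.69, with VAD and BMS below both controls. Xaf1, a regulator of apoptosis, had the same order, at 7.99, 7.71, 7.85 and 7.74. Bst2, or tetherin, which holds budding virus at the cell surface, stood at 9.64, 9.63, 9.18 and 9.42, lower in the antagonist experiment. Cmpk2, a mitochondrial nucleotide kinase, was highest in BMS, at 7.73, 7.48, 7.65 and 7.98.

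Ifitm1 and Ifi27l2a had the widest ranges of the effectors. Ifitm1, a membrane protein of the Ifitm family, stood at 6.20 in VAS, 6.29 in VAD, 5.25 in CTR and 4.24 in BMS. The diet experiment lay above the antagonist experiment, and BMS lay lowest, at -1.02 from CTR and -1.96 from VAS. Ifi27l2a, a relative of Ifi27, stood at 5.96, 5.10, 4.84 and 6.08, high in VAS and BMS. Against the other control it differed by 0.26 in VAD and 0.12 in BMS. Hbb-b1, a beta globin gene, was also high in VAS and BMS, at 9.69, 7.69, 7.77 and 9.72, and its part in the Ifi27l2a difference was not tested.

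The 5 GTPase genes measured among the members stood in the same direction within both experiments. Gbp2, Gbp3, Igtp, Irgm1 and Iigp1 encode guanylate-binding and immunity-related GTPases that interferon gamma induces and that act on vacuoles of intracellular pathogens. All 5 were highest in VAS, and all 5 were lower in VAD than in VAS and lower in BMS than in CTR. Iigp1 stood at 9.57, 8.99, 9.31 and 8.87 in VAS, VAD, CTR and BMS, so VAD and BMS lay below both controls. Igtp had that order too, with 6.55, 5.87, 6.07 and 5.84, and so had Gbp3, with 8.32, 7.65, 7.81 and 7.69. In Gbp3 and Igtp the VAS array stood well above the other 3, and against CTR the VAD differences were -0.16 and -0.20. Irgm1 stood at 8.35, 7.92, 7.73 and 7.48, and Gbp2 at 10.01, 9.83, 9.64 and 9.40. For these last genes the order ran VAS, VAD, CTR, BMS, with the control of the antagonist experiment below VAD. The medians of the 5 were -0.58 in VAD against VAS, -0.24 in BMS against CTR and -0.48 in CTR against VAS. In BMS against VAS all 5 were 1.5-fold lower, with values from -0.87 to -0.61, beside 5.41% of all genes. Related genes outside the members were less uniform. Gbp4 and Gbp9 were lower in VAD than in VAS (-0.73 and -0.06) but higher in BMS than in CTR (0.30 and 0.40). Gbp5, Gbp7, Irgm2 and Ifi47 were lower in both, but Gbp5 and Gbp7 were highest in CTR.

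The bases before 4 of these genes are shown because each of them holds response element letters within 60 bases of the start. Each is 100 bases from RefSeq, GRCm38.p6, ending 1 base before the start and written 5′ to 3′ on the gene's strand. Capitals mark the same letters on either strand. Positions are chr3:142620563-142620662 (plus) for Gbp2, chr3:142559944-142560043 (plus) for Gbp3, chr11:58199456-58199555 (plus) for Igtp and chr11:48871421-48871520 (minus) for Irgm1.
Gbp2: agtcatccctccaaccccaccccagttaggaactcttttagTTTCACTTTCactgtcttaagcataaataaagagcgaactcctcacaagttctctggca
Gbp3: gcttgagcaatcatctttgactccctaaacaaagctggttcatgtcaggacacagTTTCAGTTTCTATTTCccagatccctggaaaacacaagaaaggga
Igtp: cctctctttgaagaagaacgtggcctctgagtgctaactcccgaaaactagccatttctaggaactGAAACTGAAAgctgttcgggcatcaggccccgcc
Irgm1: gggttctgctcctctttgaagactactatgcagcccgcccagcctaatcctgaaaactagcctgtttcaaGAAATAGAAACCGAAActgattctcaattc

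The letters were common among the members. RefSeq promoter windows were found for 28 of the 37 measured members, and the 250 bases before the start were searched on both strands. The response element letters (GAAA, any 2 bases, GAAA) were present for 13 of the 28 (46.4%) and for 3.46% of 27025 genes. The shorter GAAANNGAA, which lies within every longer match, was present for 14 of the 28 and for 8.18% of genes. TTCNNNGAA, the letters of a gamma-activated site, was present for 6 (21.4%) and for 8.13% of genes. Among members past the filter, the VAD against VAS medians were -0.39 for the 10 with the response element letters and -0.22 for the 14 without. In BMS against CTR the medians were -0.24 and -0.04, and in CTR against VAS -0.42 and -0.14. For the gamma-activated site letters, the 5 members with them and the 19 without had medians of -0.22 and -0.25 in VAD against VAS. These were 0.10 and -0.17 in BMS against CTR, and -0.47 and -0.21 in CTR against VAS. A match of letters is a description and not a binding site.

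Psmb8 and Psmb9 encode subunits of the immunoproteasome, which cuts proteins for display, and Tap1 a subunit of the transporter that carries the peptides. All 3 were highest in VAS. Psmb9 stood at 8.49, 8.07, 7.45 and 8.09 in VAS, VAD, CTR and BMS, and Psmb8 at 8.24, 8.03, 7.59 and 7.76. For both, CTR was the low array. Tap1 stood at 9.56, 9.23, 9.22 and 8.67, so BMS was the low array. Tap1 and Psmb9 therefore differed in opposite directions in BMS against CTR, by -0.54 and 0.64, and Psmb9 in BMS differed by -0.40 from VAS, while in VAD against VAS they differed by -0.33 and -0.42. These genes are transcribed away from each other, and 225 bases separate their starts. The stretch is shown because both genes begin at its ends (chr17:34187331-34187555, RefSeq, GRCm38.p6), in the direction of Tap1. It held 0 matches to the 3 sets of letters searched, and has no capitals.
Tap1 and Psmb9: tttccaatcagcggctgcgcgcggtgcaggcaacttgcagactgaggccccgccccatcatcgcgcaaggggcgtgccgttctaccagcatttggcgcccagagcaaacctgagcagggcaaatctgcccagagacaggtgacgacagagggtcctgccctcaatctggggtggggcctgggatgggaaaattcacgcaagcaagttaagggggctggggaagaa

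Ifi204 and Ifi211 showed the largest differences of all members. They belong to the Ifi200 family, interferon-inducible proteins with DNA-binding HIN domains, some of which sense DNA. Ifi204 stood at 7.78 in VAS, 6.63 in VAD, 5.60 in CTR and 7.49 in BMS. Ifi211 stood at 9.27, 8.16, 7.12 and 8.98. The order was VAS, BMS, VAD, CTR for both, with CTR far below the rest. The VAD against VAS differences were -1.15 and -1.11, and the BMS against CTR differences 1.89 and 1.86. Between the controls the differences of CTR from VAS were -2.17 and -2.15. The directions therefore turn with the control: VAD stood 1.03 and 1.04 above CTR, and BMS differed from VAS by -0.29 for each.

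Neighbouring genes of the family that passed the filter, looked at after these values were seen, were also lowest in CTR. Their order on the other arrays varied. RefSeq lists 17 genes from Ifi206 to Ifi205 on chromosome 1, of which 12 were measured and 7 passed the filter. The 7 include Ifi204 and Ifi211 themselves, whose values prompted the look. All 7 were lowest in CTR and at least 2-fold lower there than in VAS, beside 26.9% and 1.71% of all genes. All 7 were also at least 1.5-fold higher in BMS than in CTR, and 6 were highest in VAS, beside 3.11% and 26.7%. In VAD against VAS 6 were 1.5-fold lower, beside 2.11% of all genes. Ifi205 stood at 8.72, 8.50, 6.31 and 8.42, so VAD stayed near VAS. Ifi203 stood at 7.91, 6.96, 6.07 and 7.56, and Ifi202b at 7.49, 6.74, 5.83 and 7.55. Mndal stood at 7.40, 6.34, 5.03 and 5.73, with BMS nearer to CTR than in the others. Ifi207 stood at 7.20, 6.58, 5.39 and 6.46. These genes are close copies of each other, and the array may not tell them apart, so they are not independent observations.

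**Figure D5:**
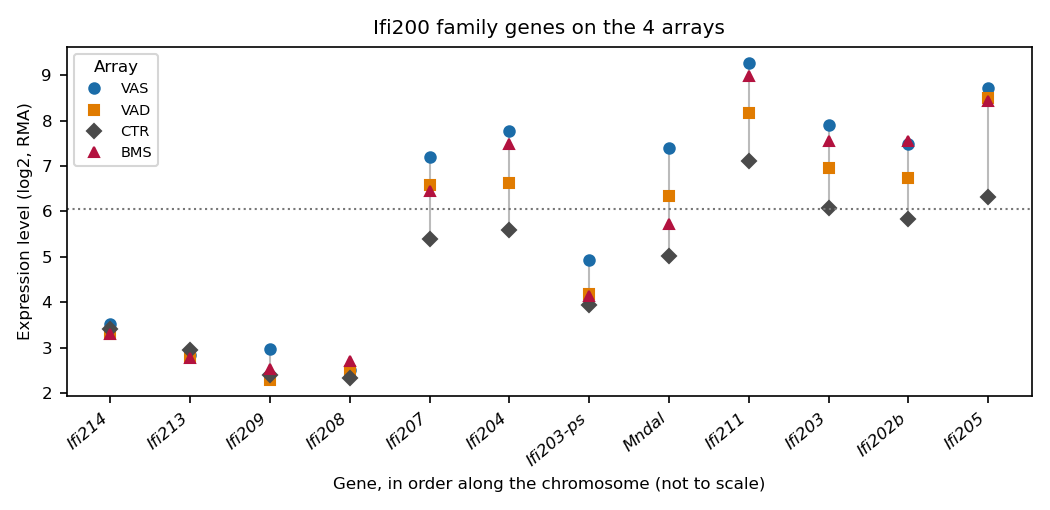
Expression level (log2, vertical axis) of the 12 measured Ifi200 family genes in their order along chromosome 1 (horizontal axis, not to scale) on the 4 arrays, with a dotted line at the filter of 6.05. In the 7 genes above the filter CTR is lowest throughout, and VAS is highest except for Ifi202b.

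The start regions of 5 of these genes are shown because each holds the response element letters, and some pairs share the bases around them. Each stretch is 100 bases before the start (for Ifi205, bases 150 to 51 before it) on the minus strand of chromosome 1, RefSeq, GRCm38.p6, written 5′ to 3′, with the response element letters in capitals. They span chr1:173741810-173741909 (Ifi207), chr1:173880188-173880287 (Mndal), chr1:173913047-173913146 (Ifi211), chr1:173942493-173942592 (Ifi203) and chr1:174031806-174031905 (Ifi205). Ifi204 had no window in the table.
Ifi207: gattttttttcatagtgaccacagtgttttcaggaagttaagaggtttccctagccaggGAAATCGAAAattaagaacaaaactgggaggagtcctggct
Mndal: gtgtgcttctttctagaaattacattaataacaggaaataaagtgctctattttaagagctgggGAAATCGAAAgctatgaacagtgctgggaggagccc
Ifi211: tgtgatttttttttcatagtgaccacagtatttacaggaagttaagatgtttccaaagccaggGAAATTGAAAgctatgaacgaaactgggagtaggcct
Ifi203: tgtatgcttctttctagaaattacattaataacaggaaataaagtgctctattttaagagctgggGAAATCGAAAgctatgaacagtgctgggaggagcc
Ifi205: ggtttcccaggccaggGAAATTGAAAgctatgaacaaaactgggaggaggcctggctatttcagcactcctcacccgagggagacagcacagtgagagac
Over 50 bases placed on the letters, Mndal and Ifi203 were identical at all 50, Ifi211 and Ifi205 at 46, Ifi207 and Ifi205 at 88.0% and Ifi207 and Ifi211 at 84.0%. The other pairs were identical at 64.0% to 70.0%.

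Fibroblast markers stood in the same direction as the Ifi200 genes in the antagonist experiment and, for most, between the controls, but had a median near 0 in the diet experiment. All 12 of 12 were above 0 in BMS against CTR, with a median of 0.50, and 8 of 12 were below 0 in CTR against VAS, with a median of -0.38. In VAD against VAS the median was 0.03, with 6 above 0. Cd34, a surface protein of adventitial fibroblasts, stood at 10.38, 10.22, 9.01 and 10.72 in VAS, VAD, CTR and BMS. Pi16, a marker of the same cells, stood at 10.87, 10.77, 8.74 and 9.95. Both were picked with the values known, and other markers differed less or the other way between the controls. Dcn and Inmt, with the highest mean levels of the list, differed by -0.08 and -0.45 in CTR against VAS. Col1a1, Col1a2, Col3a1 and Lum were higher in CTR, by 0.31, 0.30, 0.64 and 0.06. The summed level of the list was 14.31, 14.28, 14.07 and 14.51 on the log2 scale, and no marker of it was low on every array. The part of these cells in the Ifi200 differences was not tested.

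Leukocyte and alveolar markers also differed between arrays. Of the 13 measured macrophage, monocyte and dendritic cell markers, 7 passed the filter, and their summed level was 11.55, 11.24, 10.44 and 10.76. Ptprc, the CD45 gene of all leukocytes, stood at 7.47, 7.39, 5.97 and 6.21. Cd74 stood at 10.37, 9.88, 8.53 and 9.16, lower in VAD than in VAS and lowest in CTR. Of the 9 granulocyte and mast cell markers 4 passed, with a summed level of 10.69, 10.67, 9.72 and 9.60. Of the 13 lymphocyte markers 5 passed, with a summed level of 10.48, 10.72, 10.26 and 10.07, and Ms4a1 of B cells lay at or under 4.32. Alveolar markers, of which 6 of 12 passed, had a summed level of 11.52, 10.45, 9.74 and 10.34, led by Sftpc, surfactant protein C. The alveolar markers were lower in VAD than in VAS, as the members were, with a median of -0.75 and 4 of 6 lower by 1.5-fold. VAS was therefore the array with the highest summed alveolar and macrophage signal, as well as the highest interferon response genes for the most part. The myeloid markers were mixed between VAS and VAD. The macrophage, monocyte and dendritic cell list had a VAD against VAS median of -0.0, with 3 above 0 and 4 below. Itgam, Mrc1 and Csf3r were highest in VAD, by 0.20, 0.08 and 0.81 over VAS. Ly6c2, Cd74 and Csf1r were lower in VAD than in VAS, by -0.48, -0.48 and -0.33. The granulocyte and mast cell list had a VAD against VAS median of -0.14, with 1 above 0 and 3 below. Siglech, which marks plasmacytoid dendritic cells, a main source of type I interferon, lay between 5.37 and 5.51, under the filter on all arrays. How far these cells contribute to the members' levels was not tested.

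The other genes of the pathway had medians nearer to 0 than the members. Of 112 in 5 lists, 101 were measured and 81 passed the filter, with medians of -0.07 in VAD against VAS, 0.02 in BMS against CTR and -0.12 in CTR against VAS. The joint limma fit called 0 of the 81 for VAD and BMS, with 1 at an unadjusted p under 0.05, beside 3.84% of all genes. Its experiment term also called 0 of the 81. At an unadjusted p under 0.05 that term had 16, of which 13 were lower in the antagonist experiment, beside 10.9% of all genes (6.91% lower). In VAD against VAS 8 of the 81 were 1.5-fold lower and 1 higher, beside 2.11% and 1.45% of all genes. In BMS against CTR 3 were lower and 5 higher, beside 1.89% and 3.11% of all genes.

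Of the interferon genes themselves, 4 of 8 measured passed the filter. Ifng, the gene of interferon gamma, lay below it on all arrays, at 5.57, 5.55, 5.65 and 5.64, and so did Ifnb1, at 3.45 to 3.72. Ifna4 was higher in VAD, at 6.96, 7.84, 7.11 and 7.13, and Ifna5, a gene of the same family, stood at 6.85, 7.11, 7.13 and 6.76. The Ifna genes are close copies of each other, so their values are uncertain. Receptor and kinase genes were flat. Ifnar1 and Ifnar2, the type I receptor, stood between 8.59 and 8.87 and between 10.28 and 10.43. Ifngr1, the ligand-binding chain of the gamma receptor, stood at 9.38, 9.67, 9.33 and 9.54. None of the 8 past the filter was 1.5-fold apart in any of the 3 comparisons, and Jak2, at 9.18, 9.01, 9.12 and 8.66, was lowest in BMS.

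Among 10 nucleic acid sensing genes past the filter, none was 1.5-fold apart within an experiment. Irf5, a factor of myeloid cells, was 1.5-fold lower in CTR than in VAS, at 6.68, 6.51, 5.92 and 5.97. Tlr3, which senses double-stranded RNA, stood at 8.60, 8.44, 8.18 and 8.57. Of 11 genes listed as negative regulators, 10 were lower in VAD than in VAS, beside 48.5% of all genes. The differences were small, with a median of -0.05 and none of 1.5-fold. Ptpn2, a phosphatase that acts on JAK kinases, stood at 8.90, 8.63, 8.50 and 8.09, and Socs1, an inhibitor of JAK kinases, at 7.98, 7.93, 7.66 and 7.79.

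Further interferon-stimulated genes were mostly lower in VAD as well. Of 48 past the filter, 35 were lower in VAD than in VAS, 8 of them by 1.5-fold, with a median of -0.14, beside 48.5% and 2.11% of all genes. The 8 include Ifi203, Ifi207 and Mndal, close copies of the members Ifi204 and Ifi211. In BMS against CTR 29 were higher and 18 lower, with a median of 0.08, beside 6372 and 6012 of all 12395 genes. Ifi47, an immunity-related GTPase, stood at 9.47, 8.45, 7.87 and 7.69, in the same order as Irgm1. Cxcl10, a chemokine that draws T cells, stood at 8.61, 7.77, 7.99 and 8.05, highest in VAS. Gbp4, a further guanylate-binding protein, stood at 7.21, 6.48, 6.77 and 7.07, lowest in VAD. The 5 that were 1.5-fold higher in BMS than in CTR were Ifi203, Ifi205, Ifi207 and Mndal of the Ifi200 family, and Ly6e. Ly6e, a membrane protein that limits virus entry, stood at 10.13, 10.08, 9.56 and 10.15, lowest in CTR. Oas1b, Phf11d and Gbp5 were 1.5-fold lower in BMS than in CTR, by -0.76, -0.66 and -0.65, and their VAD differences were -0.14, -0.15 and -0.18.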

How the data were processed

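Expression was measured on 4 Affymetrix arrays. The authors deposited log2 values from RMA. The submitters' processing notes name affy 1.36.1 and R 2.15.1. RMA equalises the distributions of the arrays, so it would hide a change common to most genes. The genome build, and whether other arrays were normalized with these, are not given in the sources used here. Of 25206 probe sets, 23185 had 1 symbol in GEO's platform annotation and 2021 are unnamed here. All 23185 symbols matched the RefSeq gene table by Entrez number.

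The members and lists were chosen with earlier results of these data known. Genes past the filter (6.05) were 53.5% of those named. With 1 array a group, differences of log2 values have no test, and precision is limited by the number of arrays. A difference of 1.5-fold is 0.58 on the log2 scale. The named genes are all members, and of each pathway list up to 4 genes per comparison with the largest differences among those past the filter, of which some are described. Ifng, Ifnb1, Gbp4, Gbp5, Gbp7, Gbp9, Irgm2, Phf11d, Ly6e and Ifi202b lie outside this rule, and were picked once the values were known. The fibroblast markers Cd34 and Pi16 were also picked then, as were Ly6c2 and Csf1r. The joint test was limma (lmFit, eBayes) with Benjamini-Hochberg adjustment, and limma and the fold counts were tested on simulated data. Software was limma 3.58.1 under R 4.3.3, and Python 3.11.15 with pandas 2.3.3, numpy 2.4.6 and matplotlib 3.10.9. Alternatives were other filters, 2-fold, other normalizations, other controls and other limma settings.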

Additional observations from a re-analysis of the deposited data

Results flagged for a closer look

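For 3 members the differences in the experiments were opposite in direction and past 1.5-fold in both: lower in VAD than in VAS and higher in BMS than in CTR, as for 0.411% of all genes. The BMS difference exceeded the VAD difference by 3.04 for Ifi204, 2.97 for Ifi211 and 2.11 for Ifi27l2a, on the log2 scale. Each rests on 1 array per group, and the difference between the experiments was not tested.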

How the results depend on the processing

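Counts at 1.5-fold and medians of the members kept their direction under both other normalizations and without the filter; the changes follow. For VAD against VAS, 442 genes became 796 without the filter, the filter at the 75th percentile (7.67) left 3 members and 209 genes, and 2-fold left 2 and 81. Against CTR 770 genes passed and the median of the members was -0.07, and against the mean of both controls 1 member passed and the median was -0.15. For BMS against CTR, 3 members passed in place of 5 with the mean filter, with the 75th percentile filter (310 genes, median -0.09) and, as chosen after seeing the data, without Ifi204 and Ifi211. At 2-fold 168 genes passed, and against VAS 9 members, 1069 genes and a median of -0.29. For CTR against VAS, the 75th percentile filter left 5 members and 545 genes, and 2-fold left 4 and 252. With the other control, Ifi204 turned to 1.03 in VAD and -0.29 in BMS, Ifi211 to 1.04 and -0.29, Ifi27l2a to 0.26 in VAD and Psmb9 to -0.40 in BMS. The limma fit on VAD and BMS called 0 genes under every alternative run, the fit with no replicate block included, and the lowest adjusted p of a member ran from 0.892 to 1.0. The experiment term called 10 genes with no replicate block, 1 with robust = TRUE, 15 after quantile normalization, and 0 to 53 leaving out each array (53 without CTR, 41 without BMS), with the lowest adjusted p of a member from 0.0196 to 0.449. The 0.0196, of Ifitm1 without CTR, sets the BMS array alone against VAS and VAD, through which Ifitm1 passed the filter, and is no support for a difference. Fewer arrays or genes enter some of these fits; otherwise the cause was not tested. Signal over background is unknown.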
